A study of Mus musculus with 12 samples.

Results

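A set of 10 genes of transforming growth factor beta (TGF-beta) signalling were followed in stem cells of the hair follicle, isolated from the back skin of mice, and all of them were found by name among the 37931 genes named in both count tables. They comprise the ligands Tgfb1, Tgfb2 and Tgfb3, the receptors Tgfbr1 and Tgfbr2, the latent TGF-beta binding proteins Ltbp1, Ltbp2 and Ltbp3, and Tgfbi and Tmeff1, which are genes known to respond to the pathway. Cells were sorted as positive for H2BGFP, CD34 and CD49f and negative for Sca-1, and poly(A) RNA of the sorted cells was sequenced. Knockout (KO) mice carried Foxc1 fl/fl alleles, the K14-H2BGFP reporter and K14Cre, a recombinase under the promoter of keratin 14, a gene expressed by basal cells of the epidermis and by the epithelium of the follicle. Control mice, called wild type (WT), shared the floxed alleles and the reporter and lacked the recombinase. In anagen, the growth phase, 2 KO libraries (titled P29 and P31) and 3 WT libraries (titled P29, P30 and P31, the last with an age label of 43 days) were available. In early telogen, the resting phase, there were 4 KO libraries, numbered 1, 2, 3 and 5, and 3 from WT mice, numbered 1, 3 and 4. Their age labels were 47 days, although KO replicate 5 was titled P43. By their sex labels 3 anagen libraries were female and 2 male, and 5 early telogen libraries were female and 2 male. Both anagen KO libraries were female, and 2 of the 3 anagen WT libraries were male. The labels do not say whether replicates are separate animals, so p-values measure the spread between these libraries.

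TGF-beta ligands are secreted as inactive complexes in which the propeptide stays wrapped around the mature dimer. Latent TGF-beta binding proteins attach such complexes to the extracellular matrix, from which integrins and proteases release the ligand. Released ligand binds the type II receptor, which phosphorylates the type I receptor, and this in turn phosphorylates the SMAD transducers. In the mouse follicle the pathway is known for its roles in the regression phase and in the activation of stem cells at the onset of growth.

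Libraries held 29025553 to 54482469 counts over genes in anagen and 2662083 (KO replicate 5) to 11821916 in early telogen. Each stage was thus a separate table and a separate depth, and stage, table and depth cannot be told apart. Values are CPM, the count of a gene scaled to a total of 1000000 gene counts per library. Foxc1 was lower in every KO than in every WT library, at 0.241 ± 0.0494 CPM (SD, n = 2) against 65.9 ± 43.8 (n = 3) in anagen, and at 1.86 ± 1.03 (n = 4) against 54.7 ± 9.48 (n = 3) in early telogen. Mki67, a gene of dividing cells, ranged from 33 to 156 CPM in anagen KO and from 12.5 to 81.3 in anagen WT. In early telogen it ranged from 46.4 to 50 CPM in KO and from 5.65 to 8.57 in WT. The early telogen KO libraries thus lay above all early telogen WT libraries and within the range of anagen KO. The part of dividing cells in the results was not tested. The 10 stem cell markers (Krt5, Krt14, Krt15, Cd34, Itga6, Lhx2, Sox9, Nfatc1, Lgr5 and Tcf7l1) summed to 21842 to 36126 CPM over all libraries. Fibroblast and dermal papilla markers, of which 9 of 10 were in both tables, summed to 349 to 677 CPM in anagen KO, 251 to 794 in anagen WT, 440 to 4894 in early telogen KO and 242 to 1468 in early telogen WT. The highest of these sums was that of early telogen KO replicate 2, and Corin, a dermal papilla marker, was at 0 in all early telogen WT libraries. Endothelial markers summed to at most 38.6 CPM and immune markers to at most 236 CPM. The 6 markers of differentiated epidermis summed to 611 to 1086 CPM in anagen KO, 1508 to 2245 in anagen WT, 1734 to 5955 in early telogen KO and 1566 to 3826 in early telogen WT. In the same order of groups, melanocyte markers, of which 5 of 6 were in both tables, summed to 25.2 to 28.8, 58.1 to 137, 70.4 to 105 and 80.4 to 136 CPM. Those of muscle, adipocytes and Schwann cells, of which 6 of 7 were in both tables, summed to 89.4 to 215, 38.1 to 106, 40.9 to 79.6 and 25.6 to 51.2 CPM. The part of other cell types in the results was not tested. In bulk samples, fewer cells of a type and less RNA per cell cannot be told apart.

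Windows before the start sites were taken from RefSeq (GRCm38.p6), which had entries for 9 of the 10 genes, and are shown for the ligands and latency proteins whose levels differed between the stages in both genotypes. They were searched on both strands for a forkhead motif (TGTTTNC), a SMAD motif (CAGAC), a GC box (GGGCGG) and an AP-1 motif (TGANTCA), and matches are in capitals, so that a match on the other strand appears as its reverse complement. Each window is printed 5′ to 3′ in the direction of transcription and, apart from that of Ltbp2, ends at the base before the RefSeq start. That of Ltbp2 ends at the base before the GENCODE start, which lies upstream of the RefSeq one, and is 209 bases long.
Tgfb1, chr7:25686752-25687001, plus strand: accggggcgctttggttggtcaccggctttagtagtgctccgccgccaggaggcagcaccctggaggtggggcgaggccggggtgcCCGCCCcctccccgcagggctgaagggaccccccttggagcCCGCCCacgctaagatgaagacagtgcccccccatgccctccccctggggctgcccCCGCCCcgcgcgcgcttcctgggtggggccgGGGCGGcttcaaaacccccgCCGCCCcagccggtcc
Tgfb2, chr1:186705990-186706239, minus strand: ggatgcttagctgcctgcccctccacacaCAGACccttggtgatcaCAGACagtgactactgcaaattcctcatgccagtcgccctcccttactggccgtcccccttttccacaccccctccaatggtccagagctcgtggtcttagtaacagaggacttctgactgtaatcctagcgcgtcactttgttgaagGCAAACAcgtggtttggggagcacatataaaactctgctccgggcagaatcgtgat
Ltbp1, chr17:75005279-75005528, plus strand: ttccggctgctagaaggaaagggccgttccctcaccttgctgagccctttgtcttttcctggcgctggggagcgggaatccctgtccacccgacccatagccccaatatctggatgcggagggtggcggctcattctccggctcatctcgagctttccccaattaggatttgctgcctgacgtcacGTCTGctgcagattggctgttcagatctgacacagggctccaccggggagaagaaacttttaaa
Ltbp2, chr12:84876533-84876741, minus strand: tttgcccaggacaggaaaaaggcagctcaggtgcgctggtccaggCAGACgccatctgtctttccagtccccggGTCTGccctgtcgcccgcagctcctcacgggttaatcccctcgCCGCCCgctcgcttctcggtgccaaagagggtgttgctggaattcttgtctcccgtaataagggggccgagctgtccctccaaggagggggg
Ltbp3, chr19:5740650-5740899, plus strand: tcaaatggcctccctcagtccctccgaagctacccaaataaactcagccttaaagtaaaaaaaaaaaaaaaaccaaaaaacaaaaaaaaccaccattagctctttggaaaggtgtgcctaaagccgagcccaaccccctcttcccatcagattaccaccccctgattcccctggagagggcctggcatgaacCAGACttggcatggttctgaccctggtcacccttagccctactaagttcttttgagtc

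Tgfb1 held 5 GC boxes and no other match. Tgfb2 held 1 forkhead and 2 SMAD matches, Ltbp1 1 SMAD match, Ltbp2 2 SMAD matches and 1 GC box, and Ltbp3 1 SMAD match. RefSeq holds another Ltbp1 window, chr17:75178531-75178780, which is not printed and held 2 SMAD matches. Of 32851 RefSeq promoter windows of 250 bases searched in the same way, 17.8% held the forkhead motif, 42.2% the SMAD motif, 32.7% the GC box and 6.75% the AP-1 motif, which none of these 5 windows held. A match is a description of the letters and not a bound site. In the GENCODE M21 annotation (GRCm38) all 10 genes are protein coding: Tgfb1 lies at chr7:25687002-25705077, Tgfb2 at chr1:186622792-186705989, Ltbp1 at chr17:75005568-75392512, Ltbp2 at chr12:84783212-84876532 and Ltbp3 at chr19:5740904-5758532. Exons of Ltbp2, Ltbp3, Tgfb2 and Tgfb3 overlap exons of genes on the opposite strand over 9.34%, 2.01%, 2.14% and 12.4% of their bases, and since the strand setting of the counting is not given in the sources used here, reads from such stretches cannot be told apart.

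The first question was how the genes differed between early telogen and anagen in WT cells. Of the 10 genes, 5 rose (Tgfb2, Tgfbr1, Tgfbr2, Ltbp1 and Ltbp2), 2 fell (Tgfb1 and Ltbp3) and 3 did not pass (Tgfb3, Tgfbi and Tmeff1), by edgeR's quasi-likelihood test with Benjamini-Hochberg adjustment over all genes at 0.05. The background was wide, since 29.5% of 12718 genes tested passed, 13.6% upward and 15.9% downward. The median log2 fold change was 0.56 over the 10 genes and -0.10 over all genes tested. In 6 of the 10 the libraries of the stages did not overlap, 4 of them higher and 2 lower in early telogen; this held for 47.9% of all genes tested, 18% higher and 29.9% lower.

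Tgfb1, the founding ligand of the family, stood at 93.8, 66.3 and 97.8 CPM in anagen WT replicates 1 to 3 and at 47.3, 38.0 and 43.1 CPM in early telogen WT replicates 1, 3 and 4. All early telogen values lay below all anagen values. The fitted log2 fold change was -0.92 ± 0.18 (SE; adjusted p = 0.00563), which is 1.89-fold lower in early telogen. Tgfb2, the ligand that dermal papilla cells are known to supply to the stem cells in mouse, moved the other way. Its libraries read 5.98, 5.21 and 10.4 CPM in anagen and 14.8, 19.4 and 26.3 CPM in early telogen, again with no overlap. The log2 fold change was 1.58 ± 0.32 (adjusted p = 0.00713), or 2.99-fold higher. Tgfb3 ranged from 10.9 to 18.2 CPM in anagen and from 7.67 to 11.7 CPM in early telogen, so that the stages overlapped, and its log2 fold change of -0.56 ± 0.28 did not pass (adjusted p = 0.166).

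The receptors both rose modestly. Tgfbr1, the type I kinase that phosphorylates SMADs, was at 69.3, 59.4 and 76.3 CPM in anagen and at 96.0, 126 and 94.6 CPM in early telogen. Tgfbr2, the type II kinase that binds the ligand first, was at 79.5, 53.7 and 58.6 CPM in anagen and at 96.9, 81.2 and 92.2 CPM in early telogen. For each of them the lowest early telogen library lay above the highest anagen library. The log2 fold changes were 0.73 ± 0.19 for Tgfbr1 (adjusted p = 0.0174) and 0.58 ± 0.18 for Tgfbr2 (adjusted p = 0.0331). These calls were close to the threshold: that of Tgfbr1 was lost without anagen WT replicate 2 (adjusted p = 0.0533) or early telogen WT replicate 3 (0.0761), and that of Tgfbr2 when any library other than anagen WT replicate 1 was left out (adjusted p = 0.0697 to 0.110). The call of Tgfbr2 was also lost with the sex label as a covariate (0.0650) and in a fit of all 12 libraries together (0.117), that is in 7 of 12 alternatives.

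Among the latency proteins, Ltbp2, a matrix protein of the same family that is known not to bind latent TGF-beta, differed most. It stood at 44.4, 46.2 and 86.3 CPM in anagen WT and at 306, 356 and 231 CPM in early telogen WT. Every early telogen library was well above every anagen library, and the log2 fold change of 2.44 ± 0.30 (adjusted p = 0.00141) amounts to 5.42-fold. Ltbp3, which binds latent TGF-beta, read 499, 265 and 465 CPM in anagen and 226, 185 and 214 CPM in early telogen. It fell without overlap, by 0.89 on the log2 scale (SE 0.23, adjusted p = 0.0169), a call that was lost without anagen WT replicate 1 (0.0522), early telogen WT replicate 3 (0.0599) or early telogen WT replicate 4 (0.0573). Ltbp1, the family member that anchors latent TGF-beta to fibrillin microfibrils and fibronectin, was at 43.4, 68.1 and 43.5 CPM in anagen and at 133, 59.3 and 121 CPM in early telogen. Early telogen WT replicate 3 lay within the anagen range. Its log2 fold change of 1.08 ± 0.30 passed (adjusted p = 0.0293), but not without anagen WT replicate 1 or 3 or early telogen WT replicate 1 or 4 (adjusted p = 0.0837 to 0.0977).

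Tgfbi, a secreted adhesion protein named for its induction by TGF-beta, overlapped between the stages, at 573, 745 and 922 CPM in anagen and 869, 938 and 879 CPM in early telogen. Tmeff1, a membrane protein with follistatin domains that TGF-beta induces in mouse follicle stem cells, was at 6.04, 5.33 and 7.60 CPM in anagen and 7.23, 10.9 and 7.50 CPM in early telogen. Neither passed, with log2 fold changes of 0.36 ± 0.21 (adjusted p = 0.224) and 0.54 ± 0.31 (adjusted p = 0.213). The calls of Tgfb1, Tgfb2 and Ltbp2 held under all 12 alternatives run for this comparison, among them the thinning of every library to 2662083 counts.

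**Figure D1:**
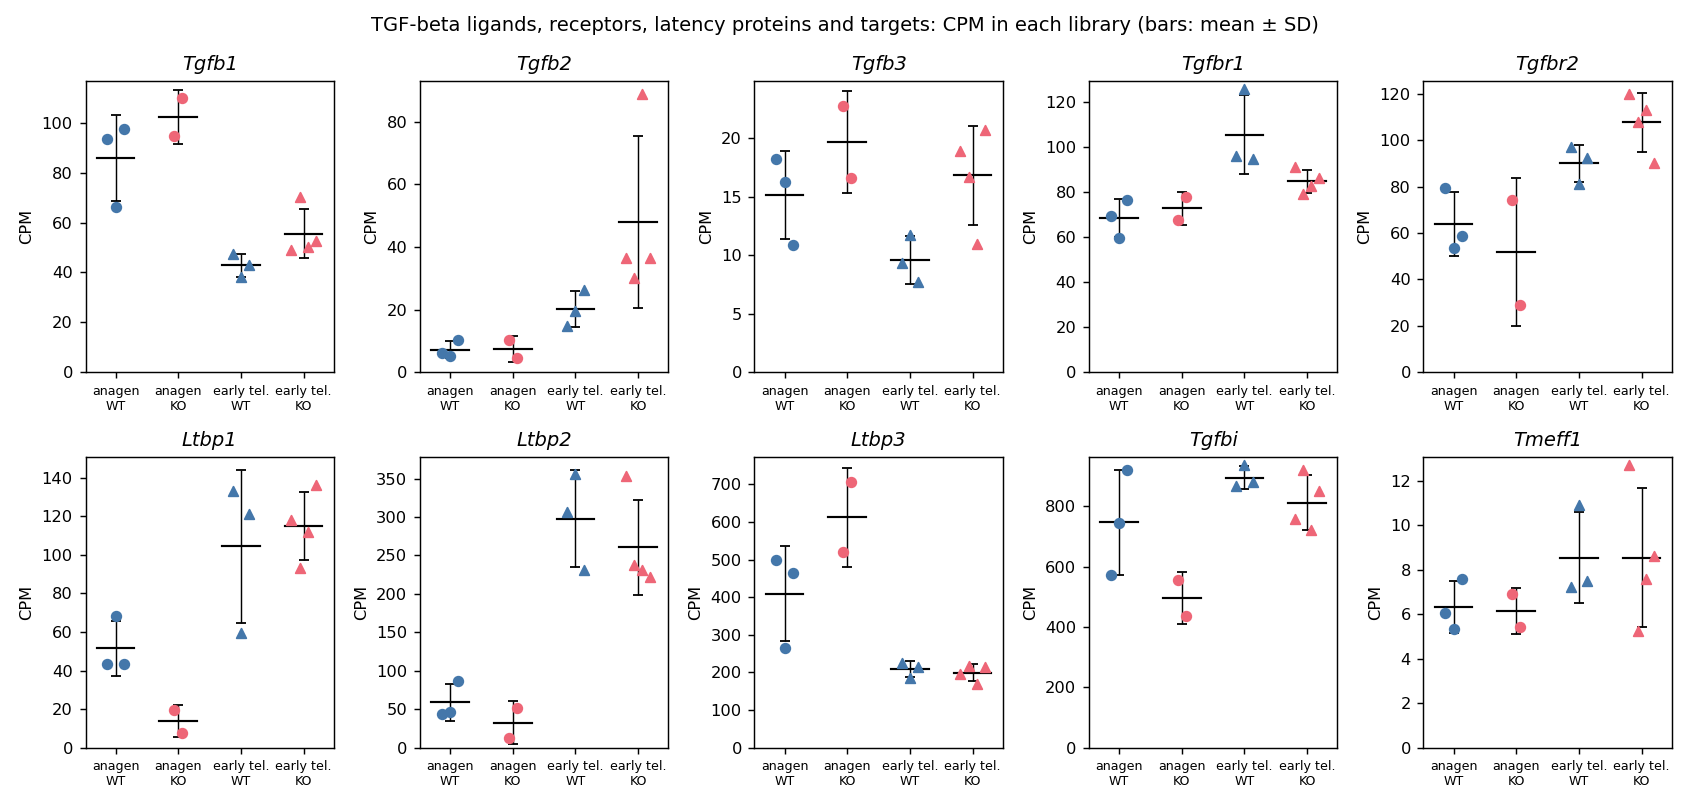
Level of each of the 10 genes in every library, as CPM on axes that start at 0, with a panel per gene. Circles (anagen) and triangles (early telogen) are libraries, and bars are the group mean ± SD. Tgfb2, Ltbp2, Tgfbr1 and Tgfbr2 are higher and Tgfb1 and Ltbp3 lower in early telogen than in anagen. For these genes the stages do not overlap within either genotype, although Tgfbr1 and Tgfbr2 did not pass in KO.

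The same comparison in KO cells gave 3 genes that rose (Tgfb2, Ltbp1 and Ltbp2), 2 that fell (Tgfb1 and Ltbp3) and 5 that did not pass. Here 22.2% of 12771 genes tested passed, 10.2% upward and 12% downward. In 8 of the 10 genes the stages did not overlap, 6 higher and 2 lower, against 44.9% of all genes tested, 21.5% higher and 23.5% lower. The median log2 fold change was 0.59 over the 10 genes and -0.03 over all genes tested. Summed markers of differentiated epidermis, of melanocytes and of endothelium were also higher in every early telogen KO than in every anagen KO library, and those of muscle, adipocytes and Schwann cells lower; their part in the values below was not tested.

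Tgfb1 read 94.9 and 110 CPM in anagen KO replicates 1 and 2, and 49.1, 70.3, 50.3 and 52.6 CPM in early telogen KO replicates 1, 2, 3 and 5. It fell by 0.90 on the log2 scale (SE 0.21, adjusted p = 0.0121), and the call was lost without anagen KO replicate 2 (adjusted p = 0.0792). Tgfb2 read 10.2 and 4.48 CPM in anagen KO and 36.5, 30.0, 88.8 and 36.4 CPM in early telogen KO. The lowest early telogen library was above both anagen libraries and replicate 3 stood far above its group. The log2 fold change was 2.76 ± 0.62 (adjusted p = 0.0147), or 6.79-fold; without anagen KO replicate 1 or 2 the adjusted p was 0.0735 or 0.160, and without early telogen KO replicate 3 the log2 fold change was 2.17 (adjusted p = 0.00649).

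Ltbp1 was low in anagen KO, at 19.7 and 7.82 CPM, and stood at 118, 93.4, 112 and 136 CPM in early telogen KO. No library overlapped, and the log2 fold change of 3.06 ± 0.41 (adjusted p = 0.000728) is 8.37-fold. Ltbp2 went from 12.9 and 52.2 CPM in anagen to 353, 237, 231 and 222 CPM in early telogen. Its log2 fold change was 3.0 ± 0.54 (adjusted p = 0.00467), and its size rested on the anagen libraries, being 2.30 without replicate 1 and 4.28 without replicate 2, with the call kept in both. Ltbp3 read 520 and 706 CPM in anagen and 195, 218, 170 and 214 CPM in early telogen. It fell by 1.63 on the log2 scale (SE 0.23, adjusted p = 0.000879), a 3.09-fold decrease without overlap. These 3 calls held under all 12 alternatives run.

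Tgfbr2 lay at the threshold in KO cells, with a log2 fold change of 1.06 ± 0.35 (adjusted p = 0.0502). It passed in 8 of 12 alternatives, among them DESeq2 (adjusted p = 0.0141), RLE factors (0.0483), no filter on low counts (0.00469), the sex covariate (0.0433), the 12-library fit (0.0180) and thinned libraries (0.0317). Its libraries read 74.2 and 29.1 CPM in anagen and 120, 108, 113 and 90.2 CPM in early telogen, without overlap. Leaving out anagen KO replicate 1, the higher of the pair, gave 1.87 (adjusted p = 0.00443) and leaving out replicate 2 gave 0.49 (adjusted p = 0.392). Tgfbr1 stood at 67.4 and 78.0 CPM in anagen and 79.2 to 91.0 CPM in early telogen (log2 fold change 0.23 ± 0.22, adjusted p = 0.488). Tgfbi stood at 557 and 436 CPM in anagen and 720 to 920 CPM in early telogen (0.70 ± 0.25, adjusted p = 0.0640; with DESeq2 0.00880, in the 12-library fit 0.0308 and without early telogen KO replicate 2 0.0490). Both were higher in every early telogen library, and neither passed in the test of the KO libraries by edgeR. Tgfb3 and Tmeff1 overlapped between the stages, with log2 fold changes of -0.25 ± 0.30 (adjusted p = 0.572) and 0.48 ± 0.44 (adjusted p = 0.456). The smallest count behind any of these values was that of Tmeff1 in KO replicate 5, where 23 counts gave 8.64 CPM with an exact Poisson interval of 5.48 to 13 CPM, which covers counting error only.

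Levels of different genes were compared as CPM per kilobase of exonic sequence. Tgfbi was the highest of the 10 genes in all 4 groups, at 198 ± 46.3 CPM per kb in anagen WT (SD, n = 3) and 237 ± 9.97 in early telogen WT (n = 3). In anagen WT, Ltbp3 followed at 45.2 ± 13.9, then Tgfb1 at 17.1 ± 3.41 and Tgfbr1 at 10.5 ± 1.30, and the ranges of these top 4 genes did not overlap between neighbours. Tgfbr1, Tgfbr2, Ltbp2, Ltbp1 and Tgfb3 formed a run in which neighbouring ranges overlapped. Tmeff1, at 2.48 ± 0.455, and Tgfb2, at 1.24 ± 0.485, closed the order, each apart from the gene above it. In early telogen WT the order after Tgfbi was Ltbp2 at 36.4 ± 7.68, Ltbp3 at 22.9 ± 2.32, Tgfbr1 at 16.1 ± 2.69 and Tgfbr2 at 11.0 ± 0.981, with each range apart from the next. Tgfbr2, Ltbp1 and Tgfb1 overlapped as neighbours, Tgfb2 at 3.48 ± 0.995 was apart from Tgfb1 above it, and Tgfb2, Tmeff1 and Tgfb3 overlapped as neighbours.

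As shares of the summed CPM per kb of the ligands, Tgfb1 gave 74.5% ± 4.9 (SD, n = 3) in anagen WT and 57.3% ± 5.8 (n = 3) in early telogen WT. Tgfb2 gave 5.42% ± 1.7 and 23.4% ± 6.1, while Tgfb3 stayed between 13.1% and 25.6% over these 6 libraries. In KO cells the share of Tgfb2 was 4.61% ± 2.6 (n = 2) in anagen and 33% ± 14 (n = 4) in early telogen, where replicate 3 alone reached 53.7%. Of the summed CPM per kb of Ltbp1, Ltbp2 and Ltbp3 alone, Ltbp3 held 78% ± 7.2 in anagen WT and 33.3% ± 4.0 in early telogen WT, and Ltbp2 12.7% ± 3.9 and 52.5% ± 9.2. In KO cells Ltbp3 held 93% ± 1.9 in anagen and 34.3% ± 4.8 in early telogen, and Ltbp2 5.05% ± 3.5 and 48.9% ± 6.0. Within each genotype these shares of Ltbp2 and Ltbp3 did not overlap between the stages. Ltbp4, the remaining binding protein, was left out of this sum although its level was the highest of the family in anagen, at 126 ± 39.4 CPM per kb in WT and 138 ± 28.9 in KO, against 42 ± 9.36 and 40 ± 7.16 in early telogen. With Ltbp4 included, Ltbp3 held 24.7% ± 2.5 in anagen WT and 20.8% ± 2.0 in early telogen WT, and those ranges overlapped, at 22.8% to 27.5% and 19.6% to 23.1%. In KO, Ltbp3 then held 32.1% ± 0.13 and 21.1% ± 2.3, Ltbp4 68.4% ± 2.1 and 37.5% ± 4.1 in WT and 65.4% ± 0.58 and 38.1% ± 4.2 in KO. Ltbp2 of this larger sum held 3.99% ± 1.1 and 33.0% ± 7.7 in WT and 1.76% ± 1.2 and 30.3% ± 4.8 in KO, so that its share was higher in every early telogen library either way. Shares were not tested, since they follow from the levels above.

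**Figure D2:**
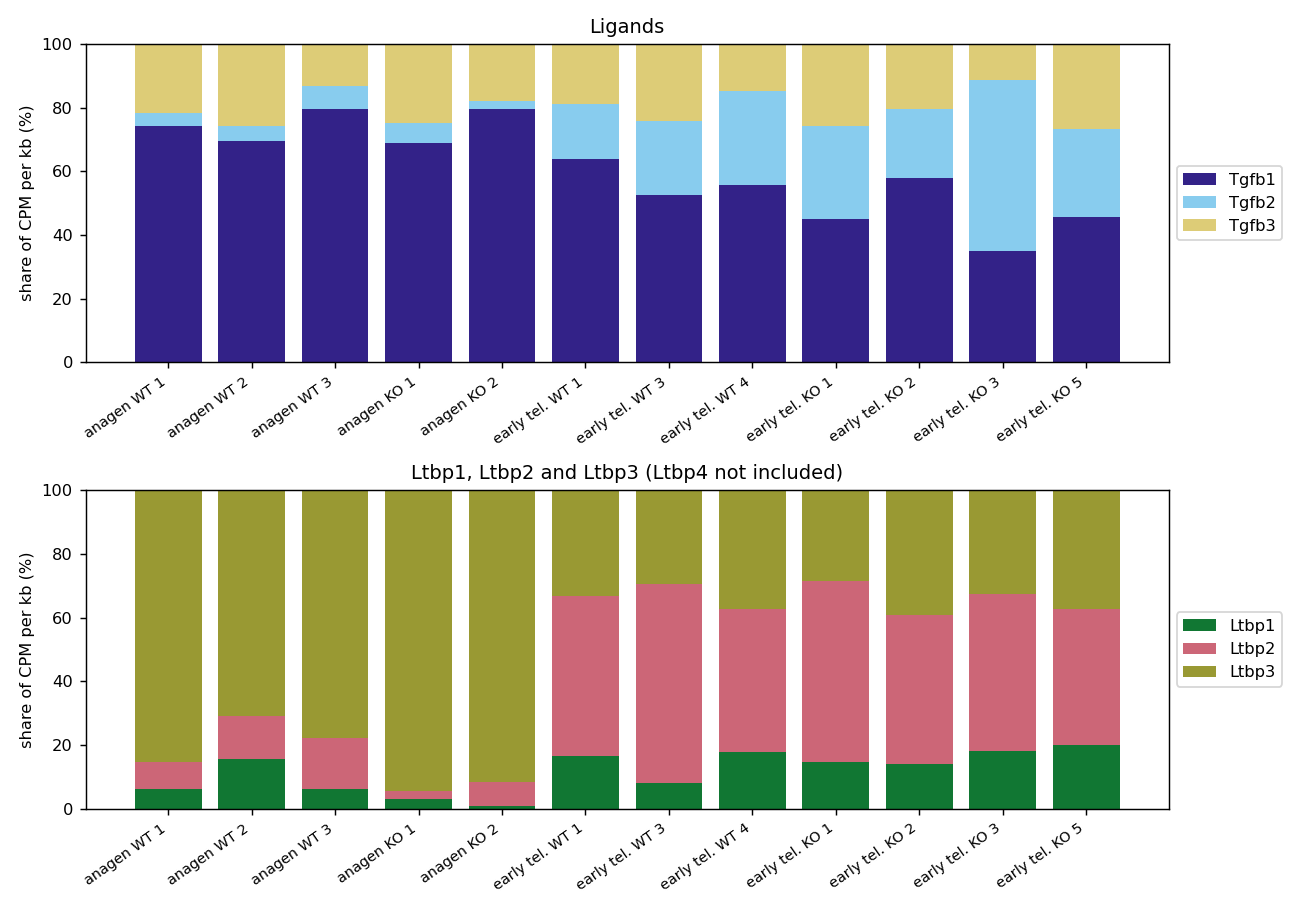
Share of each gene in the summed CPM per kb of its set of 3 genes, in percent, with a bar per library for the ligands (top) and for Ltbp1, Ltbp2 and Ltbp3 without Ltbp4 (bottom). Ltbp3 takes 70.9% to 94.4% of the lower bars in anagen and 28.4% to 39% in early telogen; Tgfb2 takes at most 7.37% of the upper bars in anagen and at least 17.4% in early telogen.

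The second question was the effect of Foxc1 loss within each stage. In early telogen, none of the 10 genes passed, where 0.956% of 12030 genes tested did (0.499% higher and 0.457% lower in KO). Groups did not overlap for 2 genes that were higher in KO (Tgfb1 and Tgfb2) and 1 that was lower (Tgfbr1), and over all genes tested this was the case for 9.75% and 3.37%, or 13.1% in either direction. The median log2 fold change was -0.09 over the 10 genes and 0.03 over all genes. Among the genes that passed was Mki67, higher in KO by 2.52 ± 0.22 on the log2 scale (adjusted p = 9.65e-05 by edgeR).

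Tgfb2 had the largest estimate of the 10. Its 4 KO libraries, at 30.0 to 88.8 CPM, all lay above the 3 WT libraries, at 14.8 to 26.3 CPM. The log2 fold change was 1.13 ± 0.47, with a 95% interval of 0.06 to 2.21 and an adjusted p of 0.378. Without KO replicate 3 it was 0.57 (adjusted p = 0.316). KO replicate 2, which had the highest sum of fibroblast markers, had the lowest Tgfb2 of the KO libraries, and without it the log2 fold change was 1.36. Whether other cells had a part in the Tgfb2 values was not tested. Tgfbr1 ran at 79.2 to 91.0 CPM in KO and 94.6 to 126 CPM in WT, without overlap, with a log2 fold change of -0.49 ± 0.19 (95% interval -0.90 to -0.07, adjusted p = 0.311). Leaving out WT replicate 3, the highest of them, gave -0.29 (adjusted p = 0.893). Tgfb1 was higher in every KO library, but the log2 fold change was 0.20 ± 0.17 (adjusted p = 0.697). Tgfb3, at 11.0 to 20.7 CPM in KO and 7.67 to 11.7 CPM in WT, had a log2 fold change of 0.61 ± 0.29 (adjusted p = 0.425).

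The latency proteins and targets lay closer together in early telogen. Ltbp1 differed by 0.00 ± 0.26 on the log2 scale, and its 95% interval ran from -0.56 to 0.56. Ltbp2 differed by -0.36 ± 0.23 (95% interval -0.87 to 0.14), Ltbp3 by -0.23 ± 0.17 (-0.60 to 0.14) and Tgfbi by -0.32 ± 0.19 (-0.73 to 0.09). Tgfbr2 and Tmeff1 differed by 0.10 ± 0.17 and -0.17 ± 0.37. Adjusted p-values of these 6 genes were 0.552 or more, and the intervals show what differences the data leave possible.

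In anagen, with 2 KO libraries, no gene of 14409 passed (0%), although 1456 had an unadjusted p under 0.05, and DESeq2 called 507. Foxc1, the deleted gene, did not pass either, at a log2 fold change of -8.19 ± 0.81 (adjusted p = 0.0522 by edgeR). Not passing here therefore does not show that a gene was unchanged. Among the 10 genes, groups did not overlap for Ltbp1 and Tgfbi, lower in KO, and for Ltbp3, higher in KO; over all genes tested 11.2% were lower and 18.5% higher without overlap, 29.7% in all. Medians of the log2 fold change were -0.09 for the 10 genes and 0.02 for all.

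Ltbp1 differed most in anagen, at 19.7 and 7.82 CPM in KO and 43.4, 68.1 and 43.5 CPM in WT. Both KO libraries lay below the lowest WT library. The log2 fold change was -2.0 ± 0.45 (95% interval -3.09 to -0.90), with an unadjusted p of 0.00382 and an adjusted p of 0.221 by edgeR. It passed with DESeq2 (adjusted p = 0.000916) and in a fit of all 12 libraries together (adjusted p = 0.0381), while with the sex label as a covariate it was -1.73 (adjusted p = 1). Leaving out KO replicate 2, the lower of the pair, gave -1.49, and leaving out replicate 1 gave -2.83. Fibroblast markers of the same KO libraries, at 677 and 349 CPM, lay within the WT range of 251 to 794 CPM. Markers of differentiated epidermis, at 611 and 1086 CPM in KO, and of melanocytes, at 25.2 and 28.8 CPM, lay below all anagen WT libraries, and their part in the value of Ltbp1 was not tested.

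Tgfbi, at 557 and 436 CPM in anagen KO against 573 to 922 CPM in WT, had a log2 fold change of -0.68 ± 0.28 (adjusted p = 0.483). The gap between the groups was narrow, and with the sex label as a covariate the log2 fold change was -0.28. Ltbp3, at 520 and 706 CPM against 265 to 499 CPM, had one of 0.49 ± 0.31 (adjusted p = 0.657). Ltbp2 overlapped because the KO libraries differed from each other, at 12.9 and 52.2 CPM, against 44.4 to 86.3 CPM in WT (-0.95 ± 0.60, adjusted p = 0.661). The ligands and receptors also overlapped: their log2 fold changes were 0.17 for Tgfb1, -0.06 for Tgfb2, 0.29 for Tgfb3, 0.00 for Tgfbr1 and -0.39 for Tgfbr2. Tmeff1 was at 6.89 and 5.41 CPM in KO and 5.33 to 7.60 CPM in WT.

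**Figure D3:**
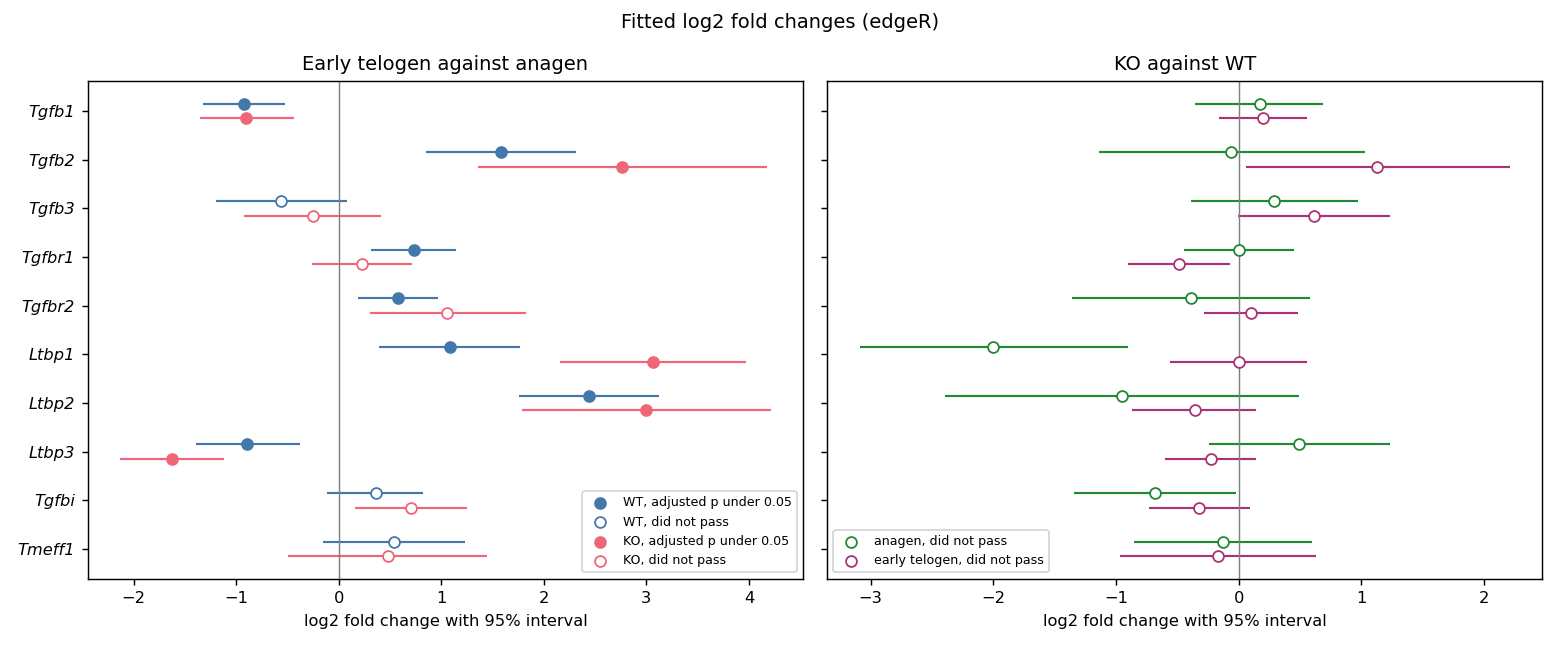
Fitted log2 fold changes of the 10 genes with 95% intervals, early telogen against anagen on the left and KO against WT on the right. Filled circles passed at an adjusted p of 0.05 and open circles did not; all circles on the right are open, and the farthest from 0 are Ltbp1 in anagen at -2.0 and Tgfb2 in early telogen at 1.13.

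The effect of Foxc1 loss was then compared between the stages. None of the 10 genes passed in a fit of all 12 libraries, where 19 of 13193 genes (0.144%) did, 0.129% with a higher and 0.0152% with a lower effect in early telogen, and 841 had an unadjusted p under 0.05. Ltbp1 had the largest difference, since its KO effect was 1.97 ± 0.53 higher in early telogen on the log2 scale (95% interval 0.84 to 3.11, adjusted p = 0.286). With DESeq2 the difference passed (adjusted p = 0.0227), as it did without a filter on low counts (2.47e-06). For Tgfb2 the difference was 1.17 ± 0.72 (-0.40 to 2.74, adjusted p = 0.902) and for Ltbp3 -0.75 ± 0.32 (-1.43 to -0.07, adjusted p = 0.689). For the receptors the difference was -0.51 ± 0.28 for Tgfbr1 (adjusted p = 0.837) and 0.47 ± 0.40 for Tgfbr2 (adjusted p = 0.939). The stage call of Tgfbr2, made in WT and not in KO in the separate fits, stood the other way round in the 12-library fit, at an adjusted p of 0.117 in WT and 0.0180 in KO.

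Other genes of the pathway were read in 5 lists of 57 genes, of which 55 were in both tables. In WT cells 21 of 52 tested passed between the stages, 15 higher and 6 lower in early telogen, and in KO cells 20 of 53 passed, 11 higher and 9 lower. Over all genes tested 13.6% were higher and 15.9% lower in WT, and 10.2% and 12% in KO. Of the 52 genes tested in both genotypes 12 passed in both, all in the same direction, which is 12 of 21 in WT and 12 of 19 in KO. The share of all genes that passed in both genotypes was not counted, so this overlap is a description and not a trait of the pathway.

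Among SMAD transducers and inhibitors, 8 of 14 were higher and 0 lower in early telogen WT, with a median log2 fold change of 0.80 against -0.10 over all genes tested, of which 13.6% were called higher and 15.9% lower. Nedd4l, a ubiquitin ligase for SMADs, was higher by 2.02 ± 0.26 on the log2 scale (adjusted p = 0.00139). Zfyve9, the membrane anchor that presents SMADs to the receptor, was higher by 0.88 ± 0.15 (adjusted p = 0.00339), and Smurf1, another ubiquitin ligase, by 0.93 ± 0.18 (adjusted p = 0.00527). The named genes that passed thus include ubiquitin ligases. Mean levels of the transducers Smad2, Smad3 and Smad4 were 62.3, 30.3 and 109 CPM in anagen WT. In early telogen WT they were 62.8, 20.9 and 103 CPM, so these means did not rise alike with the list. In KO cells 2 of the 14 passed, both higher, namely Zfyve9 (1.34 ± 0.22, adjusted p = 0.00215) and the SMAD co-repressor Ski (0.82 ± 0.24, adjusted p = 0.0333). Of all genes tested in KO, 10.2% were called higher and 12% lower. The call of Ski was lost without either anagen KO library or without early telogen KO replicate 1 or 5 (adjusted p = 0.0707 to 0.229), and without a filter on low counts (0.0553).

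Of the 12 other latency and activation genes, 2 rose and 2 fell in WT. Of all genes tested 13.6% rose and 15.9% fell in WT, and 10.2% rose and 12% fell in KO. Ltbp4, the remaining member of the binding protein family, fell by 1.5 on the log2 scale (SE 0.25, adjusted p = 0.00322) in WT and by 1.80 (SE 0.23, adjusted p = 0.000497) in KO. Bmp1, a protease that can cleave latent TGF-beta binding proteins, fell by 1.93 in WT (adjusted p = 0.00252) and by 2.32 in KO (adjusted p = 7.35e-05). Thbs1, a matrix protein that can activate the latent complex, rose in WT by 2.91 ± 0.63 (adjusted p = 0.0160), a call lost without anagen WT replicate 1 (0.0547) and without a filter on low counts (0.0816). In KO 3 of the 12 rose and 2 fell, and the collagen-binding proteoglycan Dcn rose by 1.67 ± 0.36 (adjusted p = 0.00951), a call lost without anagen KO replicate 2 (0.0753). Dcn is abundant in fibroblasts, whose markers summed to 349 to 677 CPM in anagen KO and 440 to 4894 CPM in early telogen KO. Those ranges overlapped, and the part of fibroblasts in the Dcn values was not tested.

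TGF-beta response genes moved in both directions, with 3 higher and 3 lower of 13 in WT and 3 higher and 5 lower of 14 in KO. Over all genes tested 29.5% passed in WT and 22.2% in KO. Medians of the list were -0.10 in WT and -0.60 in KO, against -0.10 and -0.03 over all genes tested. Tsc22d1, a leucine zipper protein, fell by 1.92 in WT (adjusted p = 0.00253) and by 2.55 in KO (adjusted p = 0.00326). Ctgf, a matricellular protein, rose in WT by 1.57 ± 0.28 (adjusted p = 0.00435), and the cell cycle inhibitor Cdkn2b fell in KO by 2.89 (adjusted p = 0.00293). Cdkn2b was at 10 to 20.5 CPM in anagen KO and at 0.93 to 3.29 CPM in early telogen KO. The latter values are near the floor, since 3 counts are 1.13 CPM in early telogen KO replicate 5. The activin antagonists Fst and Fstl3 rose in both genotypes, Fst by 1.63 ± 0.33 in WT and 2.63 ± 0.45 in KO, and Fstl3 by 0.98 ± 0.19 and 1.18 ± 0.28. Inhbb, an activin subunit, fell by 1.83 in WT (adjusted p = 0.0273) and by 2.48 in KO (adjusted p = 0.00230). In this list of the activin branch 2 of 9 genes rose and 1 fell in each genotype. The WT call of Inhbb was lost without anagen WT replicate 1 or early telogen WT replicate 3 or 4 (adjusted p = 0.0705 to 0.0902), with the sex covariate (0.0560) and without a filter (0.0978), and the KO call of Fstl3 without anagen KO replicate 1 (0.119).

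Of the 4 other receptors and co-receptors none passed in WT, where the co-receptor Tgfbr3 had a log2 fold change of -0.99 ± 0.36 (adjusted p = 0.0675; with DESeq2 0.0391, without a filter 0.0102, thinned 0.0430 and without anagen WT replicate 2 0.00733). Of all genes tested 29.5% passed in WT and 22.2% in KO. In KO 1 of these 4 genes rose and 1, Tgfbr3, fell by 1.05 (SE 0.33, adjusted p = 0.0448). That call was lost in 7 of 12 alternatives, namely in the 12-library fit (0.0557), with thinned libraries (0.116), and without either anagen KO library or early telogen KO replicate 1, 3 or 5 (0.0860 to 0.184). Eng, a co-receptor known from endothelium, rose in KO by 1.77 ± 0.55 (adjusted p = 0.0426), at 2.11 and 3.34 CPM in anagen and 4.24 to 17.2 CPM in early telogen. Endothelial markers summed to 12.9 to 17.2 CPM and 21 to 38.6 CPM in the same groups, and the call of Eng was lost without either anagen KO library or early telogen KO replicate 1 or 5 (adjusted p = 0.0794 to 0.201) and with thinned libraries (0.117). The part of endothelial cells in the Eng values was not tested.

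**Figure D4:**
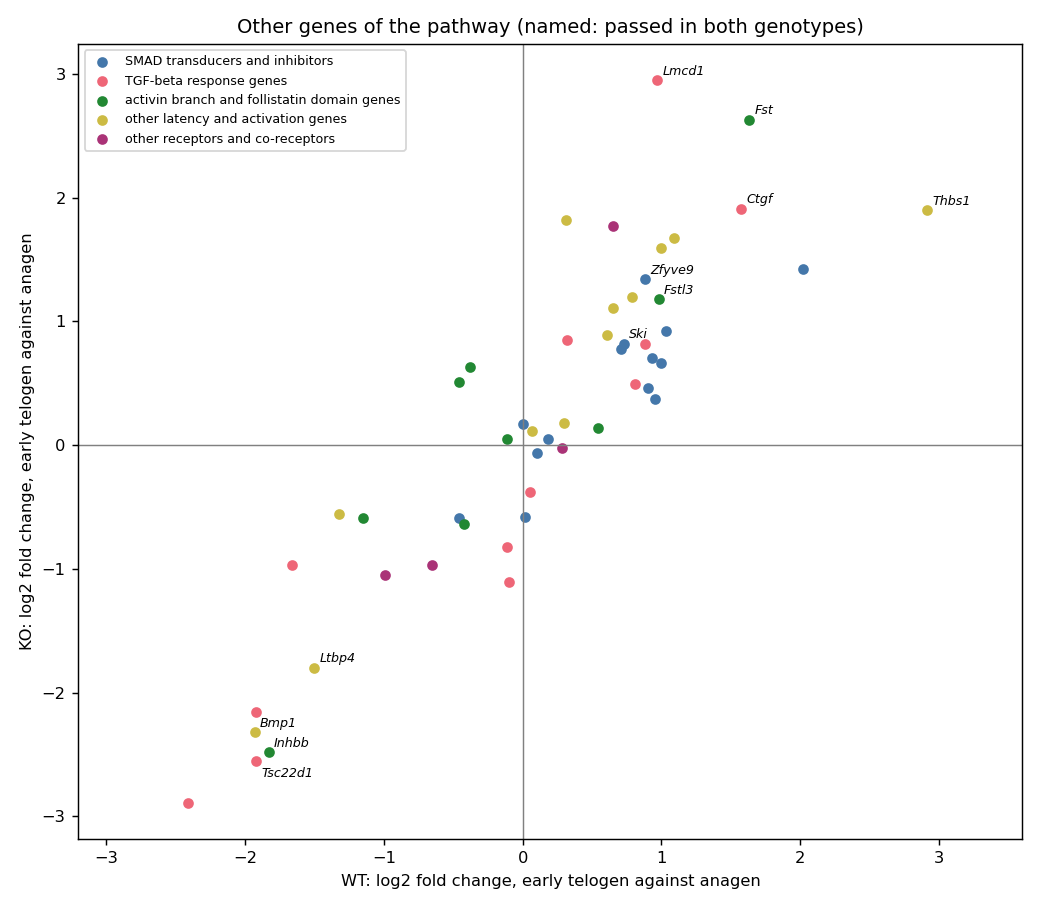
Log2 fold change of each other pathway gene between early telogen and anagen, in WT on the horizontal and in KO on the vertical axis, coloured by list. Named genes passed in both genotypes and lie at the lower left or the upper right; 1 gene of the response list is not shown.

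Between KO and WT none of these other genes passed in either stage, of 53 tested in early telogen and 54 in anagen. Over all genes tested 0.956% passed in early telogen and 0% in anagen, so few calls were to be had. The smallest p-values in early telogen belonged to Fbn2, a microfibril protein to which binding proteins attach (log2 fold change 2.23 ± 0.49, adjusted p = 0.0505), and to Itga5, a fibronectin receptor subunit (-0.96 ± 0.21, adjusted p = 0.0505). Both passed with DESeq2 (adjusted p = 0.00124 and 0.00653), without a filter on low counts and with the sex label as a covariate. Of 14 alternatives Fbn2 passed in 3 and Itga5 in 4. In the 12-library fit neither passed (0.0964 and 0.215), nor with a replicate block (0.189 and 0.289). Fbn2 was low, at 4.13 to 12.7 CPM in KO and 1.16 to 2.45 CPM in WT, without overlap. Smad3, a transducer of TGF-beta signals, stood at 35.8 to 74.9 CPM in KO and 12.8 to 26.7 CPM in WT, also without overlap (1.22 ± 0.31, adjusted p = 0.102, with DESeq2 0.0107). Smad3 passed in 2 of 14 alternatives, and its adjusted p was 0.419 in the 12-library fit. The genes of smallest p among the receptors and in the activin branch were Tgfbr3 (0.44 ± 0.31, adjusted p = 0.629) and the activin subunit Inhba (1.40 ± 0.91, adjusted p = 0.621). In anagen the smallest p-values of their lists belonged to Fst (-1.34 ± 0.38, adjusted p = 0.297) and Ctgf (-1.10 ± 0.31, adjusted p = 0.302), which passed with DESeq2 (adjusted p = 0.0189 and 0.0402). Both also passed without a filter on low counts (0.0205 and 0.0235). In the 12-library fit neither passed (0.278 and 0.345). With the sex label as a covariate neither passed, at log2 fold changes of -1.07 and -0.95. Itgb6, a subunit of an integrin that frees the latent ligand, had a log2 fold change of -1.34 ± 0.45 (adjusted p = 0.392), Eng of -0.62 ± 0.46 (adjusted p = 0.715) and Zfyve9 of -0.44 ± 0.18 (adjusted p = 0.484). None of the 53 genes tested passed in the comparison of the KO effect between stages, where 0.144% of all genes tested did.

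Genes whose pattern over the 12 libraries was most like that of a member were ranked by the root mean square difference in centred log2 CPM among 9349 genes. For Tgfb2 they were Atp10a (0.36), Nlrc5 (0.39) and Mill1 (0.43), where the median over all candidates was 1.34 and the SD of Tgfb2 itself 1.33. For Tmeff1, which is known as a target of the TGFB2 signal in mouse, they were Cep76 (0.19), Amot (0.22) and Ctu2 (0.23), with a median over candidates of 0.60. The libraries share stage, table and depth, so likeness here is a description.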

How the data were processed

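RNA of sorted hair follicle stem cells was sequenced in 12 libraries. The authors deposited raw read counts per gene in 2 tables, one per stage; per the submitters' processing notes TopHat2, HTSeq and the build mm10 were used. In anagen 38803 lines were genes, and 5 tally lines were left out of library sizes; the multi-mapped tally was 31.1% and 32.8% in KO and 20.1% to 25.8% in WT. The early telogen table held 37958 genes after 3 broken lines were left out, and 37931 genes were in both tables.

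The deposited counts were normalised by TMM, filtered with filterByExpr (minimum count 10, minimum total 15) and tested with edgeR 4.0.16 (quasi-likelihood, robust, with limma 3.58.1, R 4.3.3), with Benjamini-Hochberg adjustment over all genes of a comparison. KO effects were fitted within a table, stage effects within a genotype, and the difference over all 12 libraries. Fitted log2 fold changes have SEs and 95% intervals. Total counts were 29025553 to 54482469 in anagen and 2662083 to 11821916 in early telogen, so low genes such as Tmeff1 are least precise in early telogen. Intervals cover counting error only where named Poisson. Coordinates and exonic lengths came from GENCODE M21, promoter windows from RefSeq. The tests were also run on simulated counts, with changes set only in genes of higher mean count, so that check does not cover low genes.

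The 10 genes, the lists and the tests were chosen with earlier results of these data known. Foxc1 was named as a check of the labels and Mki67 as a reference, and mean levels are given for Smad2, Smad3 and Smad4. Markers aside, other genes outside the 10 were named by rule. Per list and comparison these were at most 3 that passed, by smallest p, or 1 of smallest p where none passed. The 3 genes of most like pattern were named for Tgfb2 and Tmeff1. In the response list 1 gene is counted but not reported by name here. Alternatives were DESeq2 1.42.0, RLE factors, no filter, a sex covariate, all libraries in 1 fit, a replicate block and leaving libraries out; thinning libraries to 2662083 counts was chosen after seeing the data. None of the 13 pairs of libraries within groups agreed within sampling noise.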

Additional observations from a re-analysis of the deposited data

Results flagged for a closer look

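In the early telogen KO group, 3 of the 10 genes had a library far from the other 3, by a gap to its nearest neighbour that exceeded Dixon's critical value for 4 samples at 95%. Chance flags about 1 in 20 such groups, and 10 were examined. Tgfb2 stood at 88.8 CPM in KO replicate 3, where the other libraries read 30.0 to 36.5 CPM (gap 0.889 of the range). Ltbp2 stood at 353 CPM in KO replicate 1, against 222 to 237 CPM in the others (0.884). Tgfb1 stood at 70.3 CPM in KO replicate 2, against 49.1 to 52.6 CPM (0.834). Each of these libraries was a different one, and the fibroblast marker sum was highest in KO replicate 2, at 4894 CPM. The part of these markers in the values was not tested.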

How the results depend on the processing

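Early telogen KO calls over all genes numbered 115, and 423 with DESeq2, 338 without a filter on low counts, 39 with all 12 libraries in 1 fit, 47 without KO 2 and WT 3 together, and 19 to 131 when 1 library was left out, fewest without WT replicate 3. None of the 10 genes passed in any of these. Anagen KO calls numbered 0, and 507 with DESeq2, 306 without a filter, 1 with the sex label as a covariate, 154 in the fit of all 12 libraries, and 0 to 95 when 1 library was left out, most without WT replicate 1. Of the 10 genes 1, Ltbp1, passed with DESeq2 and 1, again Ltbp1, in the 12-library fit. Stage calls in WT numbered 3748 and 2312 to 3329 when 1 library was left out, with 4 to 5 of the 10 genes; in KO they numbered 2835 and 1382 to 3640, with 3 to 7. Differences between stages in the KO effect numbered 19, and 154 with DESeq2, 409 without a filter, 6 with the sex covariate and 0 to 55 when 1 library was left out, none of them without anagen KO replicate 2; 1 of the 10 genes, Ltbp1, passed with DESeq2 and 1, the same gene, without a filter.

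The title numbers shared by early telogen KO and WT libraries (1 and 3) and the title days of anagen (29 and 31) served as a replicate block. Nothing in the labels says that they pair animals, and deviations from the group mean of same-numbered libraries correlated at 0.11 and 0.05, those of same-day libraries at 0.41 and 0.36, across genes. Other pairs of KO and WT libraries ranged from -0.14 to 0.12 in early telogen and from -0.41 to 0.02 in anagen. With 2 anagen KO libraries the deviations mirror each other, so the same-day values are not independent and do not show pairing. With the block, 11 genes were called in early telogen and 253 in anagen, and none of the 10 genes. Among the other pathway genes, Itgb6 (-1.43, adjusted p = 0.0130) and Ctgf (-1.27, adjusted p = 0.0201) passed in anagen with the block.

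Directions turned for small estimates that had not passed. Tmeff1 in early telogen KO was 0.04 with the block, 0.33 without KO 2 and WT 3, and -0.44 to 0.10 when 1 library was left out; Ltbp1 was 0.26 with the block and -0.26 to 0.17 when 1 library was left out, and Tgfbr3 -0.01 without KO 2 and WT 3. Tgfb2 in anagen KO was 0.22 with the sex covariate and -0.78 to 0.41 when 1 library was left out, where Tgfbr1 was -0.11 to 0.09 (0.00 in the 12-library fit), Tgfbr2 -1.24 to 0.12 and Tmeff1 -0.33 to 0.03. Tgfb3 between stages in KO was 0.08 with libraries thinned. In the difference, Tmeff1 was 0.18 and Tgfb1 0.00 with the sex covariate, and leaving out 1 library gave -0.34 to 0.21 for Tmeff1, -0.08 to 0.16 for Tgfb1, -0.11 to 1.87 for Ltbp2 and -0.06 to 1.32 for Tgfbr2. The cause was not tested. Over the 10 genes, 594 of 660 values under alternatives kept direction and side of the threshold. The depth of early telogen limits low genes most: 3 counts are 1.13 CPM in its smallest library.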
